A study of Gallus gallus with 13 samples.

Results

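The comparison described here set the polyadenylated RNA of chicken limb cells that made HOXD13 Q317K against that of cells that made PITX1. It covered 12242 of the 16737 Ensembl genes of the deposited expression table, chosen because their level reached 5 RPKM, reads scaled to transcript length and library size, in the Q317K library, the PITX1 library or both. Each gene was represented by 1 of the 21998 transcripts, the one of highest mean RPKM over the 5 RNA libraries of the study. All cultures came from limb bud mesenchyme of chick embryos at Hamburger-Hamilton stage 24 and were grown for 9 days as micromass, a dense droplet culture in which limb cells condense and lay down cartilage. Every culture was infected with the avian retrovirus RCASBP(A): the Q317K virus carried 3xFLAG-tagged mouse Hoxd13 in which a glutamine of the homeodomain is replaced by lysine, the change its name gives, and the PITX1 virus carried 3xFLAG-tagged wild-type chicken PITX1. The other libraries came from cultures that received wild-type mouse Hoxd13 (HOXD13 wt), Hoxd13 with arginine in place of that glutamine (Q317R) or the empty vector. Each group was 1 library, so differences have no replicate check and no p-value is given. The intervals in brackets after a fold are 95% exact intervals on read numbers recovered from the RPKM values, and counting error is all that they cover. Library totals ran from 14069766 reads for Q317K to 16793118 for Q317R, with 16114218 for PITX1.

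HOXD13 is the most distal member of the HOXD cluster and patterns the hand and foot plate, where its mutations cause malformed digits. Its homeodomain carries glutamine at a position of the recognition helix that contacts the bases of the DNA site, and PITX1, the paired-class factor that gives the hindlimb its identity, carries lysine at the same position of its own homeodomain. The Q317K substitution gives HOXD13 the lysine of the PITX class, and the comparison of both RNA libraries asks how near to each other the cultures came in what they expressed. In limb micromass, condensed mesenchyme normally turns into chondrocytes that secrete type II collagen and aggrecan, and some of these later enlarge and prepare their matrix for mineral.

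Most genes lay close together in both libraries. Of the 12242 genes, 96.4% were within 2-fold of each other on the scale of log2((RPKM + 1)/(RPKM + 1)), with Q317K as numerator; this scale understates differences of low genes. The median log2 ratio was 0.03, and the range from the 5th to the 95th percentile ran from -0.58 to 0.60. At least 2-fold higher in Q317K were 235 genes, or 1.92% of all kept genes, and at least 2-fold lower were 203, or 1.66%, which makes 438 genes or 3.58% in either direction. A 4-fold difference was reached by 36 genes on the Q317K side and 32 on the PITX1 side, and an 8-fold difference by 7 and 6. Counting error was small beside these differences: the interval of the fold stayed above 1.5 for 228 of the 235 genes and for 197 of the 203, and it included no difference for 1 gene, on the Q317K side.

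**Figure D1:**
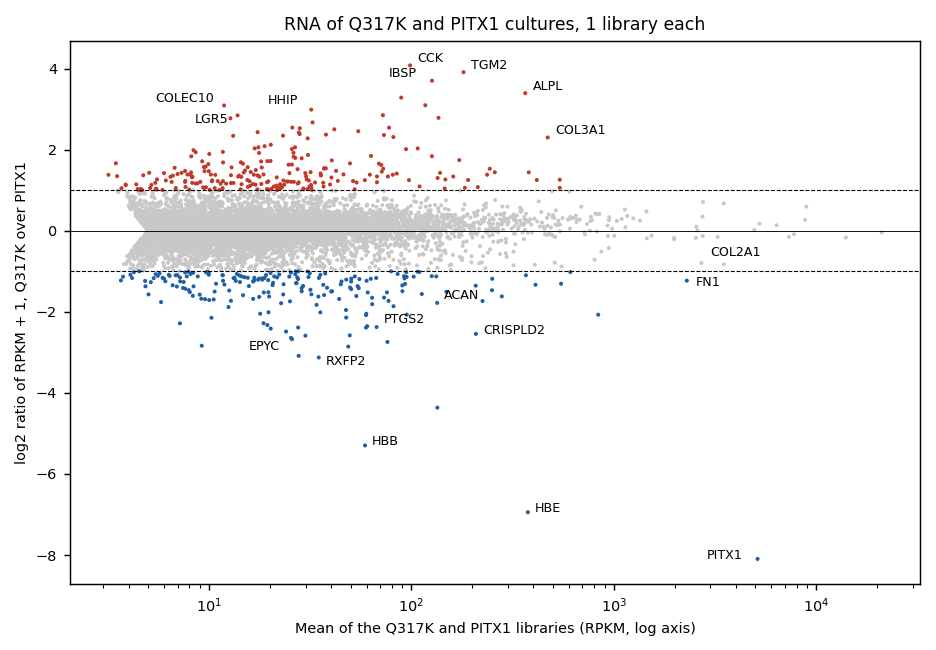
Each point is 1 of 12242 genes, with the mean of both libraries in RPKM on a log axis across and the log2 ratio of Q317K over PITX1 on the vertical axis. Red points are the 235 genes at least 2-fold higher in Q317K, blue points the 203 at least 2-fold lower, and dashed lines mark the 2-fold limits. PITX1 and the globin genes HBE and HBB lie farthest down, while CCK, TGM2, IBSP and ALPL lie farthest up.

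The genes carried by the viruses came first as a check of the labels. PITX1 (ENSGALG00000006365) stood at 36.4 RPKM in Q317K and 10233 in PITX1, beside 28.9 in HOXD13 wt, 24.8 in Q317R and 64.5 with the empty vector, which is 281-fold (258 to 307) higher in the PITX1 culture than in the Q317K culture. Reads of the transgene, which is chicken PITX1, cannot be separated from those of the cell's own gene. A second PITX1 transcript model reached 6371 RPKM in the PITX1 library and 30.8 in Q317K. The paralog PITX3, a factor of the eye lens and midbrain, was also higher in the PITX1 library, at 9.22 RPKM in Q317K and 21.9 in PITX1, beside 9.19 in HOXD13 wt, 10.5 in Q317R and 10.7 with the empty vector. It shares homeodomain sequence with PITX1, so reads of the transgene counted under its name were not told apart from its own. Chicken HOXD13 (ENSGALG00000009277) measured 36.8 RPKM in Q317K and 13.1 in PITX1, beside 63.4 in HOXD13 wt, 53.7 in Q317R and 16.6 with the empty vector. The 3 libraries with a HOXD13 virus were the highest of the 5, and Q317K was 2.81-fold (2.12 to 3.75) above PITX1. The virus carries the mouse gene, so reads under the chicken entry do not measure the transgene in full.

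The genes of hypertrophic cartilage and bone lay to the Q317K side. Of 13 measured members of the list, 6 were at least 2-fold higher in Q317K and none was at least 2-fold lower, beside 1.92% and 1.66% of all kept genes. The list's median log2 ratio was 0.88 against 0.03 over all genes. The list was drawn up with earlier results of these data known, and IBSP and ALPL were among the names translated by hand. These counts are therefore description only. IBSP, bone sialoprotein, a matrix protein on which mineral forms, measured 236 RPKM in Q317K and 17.2 in PITX1, beside 10.96 in HOXD13 wt, 10.7 in Q317R and 42.8 with the empty vector. That is 13.7-fold (11.98 to 15.8) higher in Q317K than in PITX1, and Q317K also stood well above the other 3 libraries. ALPL, the alkaline phosphatase that frees phosphate for mineral, measured 668 RPKM in Q317K and 62.6 in PITX1, beside 61.7 in HOXD13 wt, 55.3 in Q317R and 151 with the empty vector, and Q317K exceeded PITX1 10.7-fold (9.99 to 11.4). IFITM5, a small membrane protein of bone-forming cells, measured 210.5 RPKM in Q317K and 23.7 in PITX1, beside 19.9 in HOXD13 wt, 21.6 in Q317R and 47.8 with the empty vector, a ratio of 8.87-fold (8.01 to 9.84). PANX3, a channel protein of maturing chondrocytes and osteoblasts, measured 238 RPKM in Q317K and 33.7 in PITX1, beside 19.3 in HOXD13 wt, 22.1 in Q317R and 65.98 with the empty vector, a ratio of 7.07-fold (6.498 to 7.71). These 4 genes shared one order: Q317K was highest, the empty vector second, and PITX1, HOXD13 wt and Q317R lay below both.

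PHOSPHO1 was another member at least 2-fold higher in Q317K. This phosphatase of matrix vesicles in which mineral starts measured 149.8 RPKM in Q317K and 69.7 in PITX1, beside 26.9 in HOXD13 wt, 21.6 in Q317R and 44.6 with the empty vector, and for it PITX1 was the second highest library. Q317K exceeded PITX1 2.15-fold (1.997 to 2.32) for PHOSPHO1. SPARC, or osteonectin, was abundant throughout, at 4300 RPKM in Q317K and 2693 in PITX1, beside 3024 in HOXD13 wt, 2691 in Q317R and 3594 with the empty vector, and Q317K was 1.597-fold (1.58 to 1.61) above PITX1. Not every gene linked with this stage lay on the Q317K side. COL10A1, the collagen of hypertrophic chondrocytes, was low in both cultures, with 14.95 against 19.7 RPKM in Q317K and PITX1, beside 502 in HOXD13 wt, 40.3 in Q317R and 67.7 in the empty vector. SPP1, or osteopontin, measured 264 against 323 RPKM, and MMP13, the collagenase of hypertrophic cartilage, 13.01 against 11.3 RPKM. VEGFA, the vessel growth factor of this zone, and ENPP1, which makes the mineral inhibitor pyrophosphate, were lower in Q317K within the 2-fold limit, at 23.8 against 33.3 and 7.77 against 11.5 RPKM. SMPD3, a sphingomyelinase needed for skeletal mineral in the mouse, was not on the list but among the 15 named genes of largest ratio, at 44.7 RPKM in Q317K and 6.83 in PITX1, beside 9.53 in HOXD13 wt, 13.4 in Q317R and 17.9 with the empty vector, which is 6.55-fold (5.67 to 7.59) higher in Q317K than in PITX1.

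Cartilage matrix genes lay mostly the other way, higher in PITX1, although both cultures were below the empty vector for most of them. For MATN4 PITX1 was not below the empty vector, and for CILP neither culture was. Of 17 measured members, 6 were at least 2-fold lower in Q317K and 1 was at least 2-fold higher, 14 had a log2 ratio below 0, and the median was -0.79. The median of all kept genes was 0.03, with 1.66% of them at least 2-fold lower and 1.92% at least 2-fold higher, and more of them lay above 0 than below it. MATN3 was kept through PITX1 alone, being under 5 RPKM in Q317K, so it entered the 14 through its higher library. The empty vector was the highest of the 5 libraries for 12 of the 17 genes and Q317K the lowest for 9, while over all kept genes those shares were 27.7% and 19.9%. Summed over the 19 members in the table, RPKM came to 3359 in Q317K, 5685 in PITX1, 7882 in HOXD13 wt, 18009 in Q317R and 21832 in the empty vector. Q317K and PITX1 thus had the lowest sums, with PITX1 above Q317K. COL2A1 made up much of these sums, at 1983 RPKM in Q317K and 3437 in PITX1. Gene by gene, HOXD13 wt was the lowest library for 7 of the 17 and PITX1 for 1. In bulk RNA, fewer cartilage cells and less of this RNA in each cell cannot be told apart.

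The defining markers of cartilage were present in both cultures. COL2A1, the main fibrillar collagen of cartilage, measured 1983 RPKM in Q317K and 3437 in PITX1, beside 4279 in HOXD13 wt, 11296 in Q317R and 15370 with the empty vector, so that PITX1 exceeded Q317K 1.73-fold (1.71 to 1.75), inside the 2-fold limit. ACAN, or aggrecan, the large proteoglycan that holds water in cartilage, measured 59.9 RPKM in Q317K and 208 in PITX1, beside 281 in HOXD13 wt, 656 in Q317R and 969 with the empty vector, a ratio of 3.48-fold (3.37 to 3.58) in favour of PITX1. For both genes Q317K was the lowest and PITX1 the second lowest library. EPYC, or epiphycan, a small proteoglycan of growth cartilage, measured 6.23 RPKM in Q317K and 45.2 in PITX1, beside 5.03 in HOXD13 wt, 23.2 in Q317R and 77.1 with the empty vector. Here PITX1 was 7.25-fold (6.11 to 8.67) above Q317K and second to the empty vector, and HOXD13 wt was lower than Q317K. CHAD, or chondroadherin, a leucine-rich protein that binds integrins on chondrocytes, measured 19.1 RPKM in Q317K and 102 in PITX1, beside 97.4 in HOXD13 wt, 169 in Q317R and 144 with the empty vector, a ratio of 5.33-fold (4.78 to 5.95), and Q317K alone was low. CNMD, or chondromodulin, which keeps vessels out of cartilage, measured 116 RPKM in Q317K and 299 in PITX1, beside 192 in HOXD13 wt, 661 in Q317R and 922 with the empty vector, a ratio of 2.57-fold (2.49 to 2.66).

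COL9A3, a chain of the type IX collagen on the surface of cartilage fibrils, measured 153 RPKM in Q317K and 349 in PITX1, beside 403 in HOXD13 wt, 835 in Q317R and 826 with the empty vector, a ratio of 2.28-fold (2.22 to 2.35) towards PITX1. COL9A1, another chain of the same collagen, differed less, at 126 against 158 RPKM in Q317K and PITX1, beside 186 in HOXD13 wt, 805 in Q317R and 608 in the empty vector. HAPLN1, the link protein that ties aggrecan to hyaluronan, measured 63.9 RPKM in Q317K and 141 in PITX1, beside 56.5 in HOXD13 wt, 338 in Q317R and 487 with the empty vector, a ratio of 2.21-fold (2.09 to 2.34). COMP, a pentameric matrix protein of cartilage and tendon, fell just short of the limit, at 63.6 RPKM in Q317K and 124 in PITX1, beside 560.2 in HOXD13 wt, 268 in Q317R and 649 with the empty vector, a ratio of 1.95-fold (1.86 to 2.04). CILP, CLEC3A and COL27A1 were higher in PITX1 by less than 2-fold, at 11.7 against 22.2, 10.2 against 18.01 and 37.1 against 52.2 RPKM in Q317K and PITX1. The matrilins, which link collagen fibrils with other matrix, lay close together: MATN4 measured 488 against 542 RPKM, MATN1 19.7 against 16.4 and MATN3 4.09 against 5.13. The single member at least 2-fold higher in Q317K was C1QTNF3, a secreted protein of growth cartilage, at 54.9 RPKM in Q317K and 24.4 in PITX1, beside 18.4 in HOXD13 wt, 24.3 in Q317R and 237 with the empty vector, a ratio of 2.25-fold (2.01 to 2.53). CYTL1, a secreted cytokine-like protein of cartilage, was nearly equal, at 137 against 135 RPKM. PRG4 and SCRG1 were under 5 RPKM in both libraries.

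**Figure D2:**
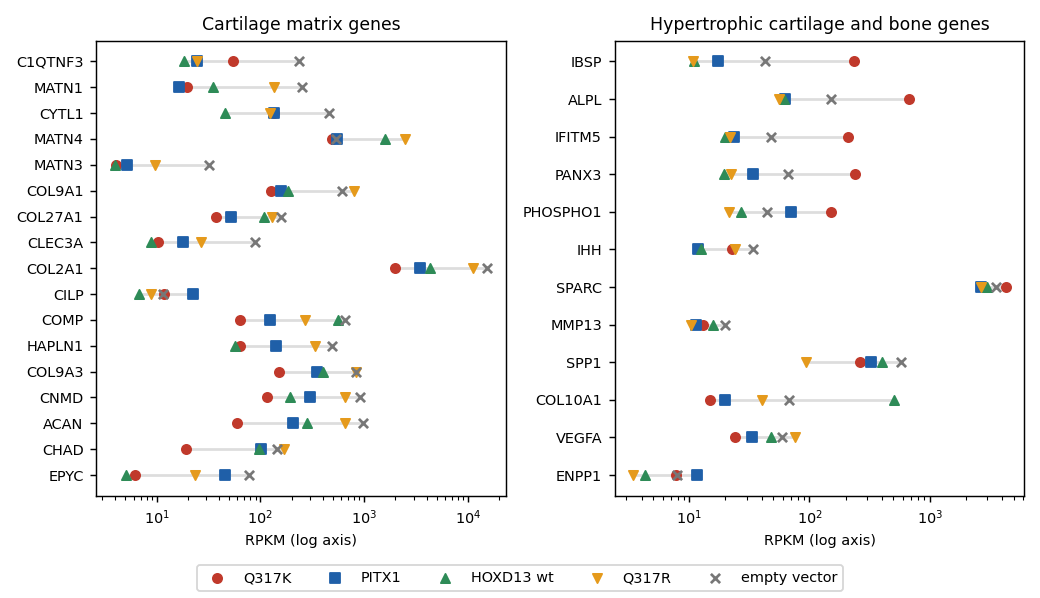
RPKM on log axes of the 17 measured cartilage matrix genes (left) and of 12 of the 13 measured genes of hypertrophic cartilage and bone (right) in the 5 RNA libraries, 1 marker per library. Genes are ordered by the log2 ratio of Q317K over PITX1. On the left Q317K (red circles) and PITX1 (blue squares) lie mostly below Q317R and the empty vector, and on the right Q317K is the highest library for IBSP, ALPL, IFITM5 and PANX3.

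The transcription factors and receptors of cartilage had a median log2 ratio near that of all kept genes, unlike the cartilage matrix list with -0.79. Their median was 0.04. None of their 7 measured members was 2-fold apart, but only 3.58% of all kept genes were, so nothing is read from this count. SOX9, the factor on which chondrocyte fate depends, measured 129 RPKM in Q317K and 133 in PITX1, beside 259.7 in HOXD13 wt, 302 in Q317R and 338 with the empty vector. Its partner SOX6 measured 8.998 RPKM in Q317K and 8.88 in PITX1, beside 20.8 in HOXD13 wt, 13.6 in Q317R and 22.8 with the empty vector. For both factors Q317K and PITX1 were nearly equal and lower than the other 3 libraries. FGFR3, the receptor that slows chondrocyte division, measured 36.5 against 35.4 RPKM in Q317K and PITX1 against 194 in the empty vector. SOX8 measured 52.4 against 46.8 RPKM. TRPS1, a GATA-type repressor of the growth plate, was 1.63-fold (1.51 to 1.75) higher in Q317K, at 33.3 against 20.5 RPKM, and HEPACAM, a cell adhesion protein, 1.63-fold (1.42 to 1.89) higher in PITX1, at 17.8 against 29.04 RPKM.

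Enzymes of sulfation and chondroitin synthesis, which build the sugar chains of aggrecan, lay slightly to the PITX1 side. Of 15 measured members 1 was at least 2-fold higher in Q317K and 1 lower, beside 1.92% and 1.66% of all kept genes. The list's median was -0.23. CSGALNACT1, which starts chondroitin chains, measured 61.1 RPKM in Q317K and 25.5 in PITX1, beside 112 in HOXD13 wt, 166 in Q317R and 70.1 with the empty vector, a ratio of 2.398-fold (2.18 to 2.65) towards Q317K, and PITX1 was the lowest library. CHST15, which adds a further sulfate to the chain, measured 7.67 RPKM in Q317K and 19.4 in PITX1, beside 17.6 in HOXD13 wt, 5.24 in Q317R and 11.8 with the empty vector, a ratio of 2.54-fold (2.19 to 2.95) towards PITX1. Most of the measured makers and carriers of the precursors were higher in PITX1 by less than 2-fold. UGDH, which makes the sugar acid precursor, measured 91.1 against 158 RPKM in Q317K and PITX1, SLC35D1, its carrier into the Golgi, 28.1 against 45.6, SLC26A2, the sulfate transporter, 9.44 against 15.2, and PAPSS2, which makes the active sulfate, 34.1 against 50.8. PAPSS1, which makes it as well, was nearly equal, at 90.2 against 92.3 RPKM.

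Among signalling genes the hedgehog list lay to the Q317K side. Of 11 measured members, 10 had a log2 ratio above 0, 2 were at least 2-fold higher in Q317K and none was 2-fold lower, with a median of 0.70. The median of all kept genes was 0.03, and 1.92% of them were at least 2-fold higher in Q317K. More of all kept genes lay above 0 than below it, so nothing is read from the 10. Indian hedgehog, IHH, the ligand that maturing chondrocytes release, measured 22.7 RPKM in Q317K and 11.9 in PITX1, beside 12.5 in HOXD13 wt, 23.97 in Q317R and 33.8 with the empty vector, a ratio of 1.91-fold (1.58 to 2.31). SHH, the ligand of the posterior limb bud, measured 12.4 RPKM in Q317K and 6.99 in PITX1, beside 6.24 in HOXD13 wt, 7.65 in Q317R and 8.78 with the empty vector. Another SHH transcript measured 16.1 against 6.01 RPKM in Q317K and PITX1, a log2 ratio of 1.29, past the limit. HHIP, which binds hedgehog ligands and is itself a target of the pathway, measured 57.5 RPKM in Q317K and 6.38 in PITX1, beside 15.1 in HOXD13 wt, 14.1 in Q317R and 14.5 with the empty vector. Q317K was 9.02-fold (7.82 to 10.4) above PITX1 for HHIP, with the other 3 libraries close to each other between them. GLI1, the target that serves as a readout of the pathway, measured 25.9 RPKM in Q317K and 15.5 in PITX1, beside 21.8 in HOXD13 wt, 22.3 in Q317R and 35.6 with the empty vector, inside the limit at 1.67-fold (1.47 to 1.8995). PTCH1, the main receptor and also a target, was nearly equal, at 16.1 against 14.8 RPKM. For 7 of the 11 genes PITX1 was the lowest of the 5 libraries, and for 4 Q317K was the highest, while over all kept genes those shares were 21.5% and 20.5%. BOC, a co-receptor, was the exception in direction, at 119 against 169 RPKM.

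The WNT list had 19 measured members, of which 3 were at least 2-fold higher in Q317K and none lower. The shares of all kept genes were 1.92% and 1.66%, and the list's median of 0.05 was near that of all genes. LGR5, a receptor for R-spondins that strengthens WNT signals, measured 25.04 RPKM in Q317K and 2.62 in PITX1, beside 9.36 in HOXD13 wt, 21.8 in Q317R and 6.52 with the empty vector. The Q317K level was 9.55-fold (7.81 to 11.8) that of PITX1, and Q317R was nearly as high as Q317K. WIF1, a secreted WNT inhibitor, measured 38.98 RPKM in Q317K and 16.5 in PITX1, beside 40.6 in HOXD13 wt, 28.7 in Q317R and 9.7005 with the empty vector, a ratio of 2.37-fold (2.101 to 2.67). FZD1, a WNT receptor, measured 249 RPKM in Q317K and 119 in PITX1, beside 67.1 in HOXD13 wt, 97.9 in Q317R and 137 with the empty vector, a ratio of 2.09-fold (2.02 to 2.17). FRZB, a secreted WNT antagonist of cartilage, lay the other way just inside the limit, at 106 against 208 RPKM in Q317K and PITX1. The R-spondins RSPO2 and RSPO3 measured 7.11 against 3.45 and 15.6 against 8.17 RPKM. LGR5 and RSPO2 were kept through Q317K alone, being under 5 RPKM in PITX1, so LGR5 entered the count through its higher library. DKK2 was kept through PITX1 alone, at 3.79 against 5.74 RPKM.

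In the BMP and TGF-beta list 3 of 15 measured members were at least 2-fold higher in Q317K and none lower. This compares with 1.92% and 1.66% of all kept genes, and the list's median was -0.05. BAMBI, a decoy receptor, measured 231 RPKM in Q317K and 90.9 in PITX1, beside 136 in HOXD13 wt, 61.8 in Q317R and 128 with the empty vector, a ratio of 2.54-fold (2.41 to 2.69). GREM1, a BMP antagonist of the limb bud, measured 23.7 RPKM in Q317K and 10.2 in PITX1, beside 18.4 in HOXD13 wt, 28.3 in Q317R and 17.4 with the empty vector, a ratio of 2.32-fold (1.88 to 2.86). BMP6, a ligand of maturing cartilage, measured 14.7 RPKM in Q317K and 6.59 in PITX1, beside 125 in HOXD13 wt, 51.9 in Q317R and 13.7 with the empty vector; Q317K exceeded PITX1 2.23-fold (1.82 to 2.75), but both were far under HOXD13 wt and Q317R. BMP4, a ligand of limb mesenchyme, was higher in PITX1 inside the limit, at 22.6 against 42.3 RPKM, and BMP2 measured 22.2 against 18.7. The antagonists CHRDL2 and NOG were low in both cultures, at 7.47 against 9.88 and 12.3 against 15.1 RPKM, against 576 and 92.1 in HOXD13 wt.

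Of 3 measured members of the IGF list, 2 were at least 2-fold higher in Q317K, both of them binding proteins, beside 1.92% of all kept genes. With 3 members, nothing is read from this count. IGFBP2 measured 202 RPKM in Q317K and 74.6 in PITX1, beside 25.3 in HOXD13 wt, 69.5 in Q317R and 31.9 with the empty vector, a ratio of 2.71-fold (2.52 to 2.93). IGFBP7 measured 105 RPKM in Q317K and 37.6 in PITX1, beside 252 in HOXD13 wt, 50.1 in Q317R and 58.6 with the empty vector, a ratio of 2.795-fold (2.55 to 3.06), and HOXD13 wt was the highest library. The ligand IGF2 measured 10.3 against 13.4 RPKM. The FGF list had 8 measured members with none past the 2-fold limit on the log scale with the pseudocount and a median of -0.18. Of all kept genes 3.58% were past it, so nothing is read from the FGF count. FGF2 came nearest, at 12.9 RPKM in Q317K and 26.3 in PITX1, beside 13.2 in HOXD13 wt, 19.5 in Q317R and 11.6 with the empty vector, a ratio of 2.03-fold (1.69 to 2.45) towards PITX1 on plain RPKM and a log2 ratio of -0.97.

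The retinoic acid genes lay apart in a few members on the PITX1 side. Of 13 measured members 3 were at least 2-fold lower in Q317K and none was 2-fold higher, beside 1.66% and 1.92% of all kept genes. The list's median was -0.12. STRA6, the cell-surface receptor that takes up vitamin A, measured 7.82 RPKM in Q317K and 52.03 in PITX1, beside 9.38 in HOXD13 wt, 9.46 in Q317R and 11.6 with the empty vector. PITX1 was the only high library for STRA6, 6.65-fold (5.75 to 7.73) above Q317K. CYP26B1, the enzyme that degrades retinoic acid in limb mesenchyme, measured 30.3 RPKM in Q317K and 97.5 in PITX1, beside 78.2 in HOXD13 wt, 91.1 in Q317R and 24.5 with the empty vector, a ratio of 3.22-fold (2.904 to 3.57), and Q317K lay near the empty vector. RXRG, a retinoid X receptor, measured 16.5 RPKM in Q317K and 52.9 in PITX1, beside 14.6 in HOXD13 wt, 19.2 in Q317R and 32.3 with the empty vector, a ratio of 3.21-fold (2.89 to 3.57). ALDH1A2, which makes retinoic acid, came near the limit, at 2.93 RPKM in Q317K and 6.42 in PITX1. It measured 2.02 in HOXD13 wt, 4.43 in Q317R and 2.13 with the empty vector. ALDH1A2 was kept through PITX1 alone, being under 5 RPKM in Q317K. RARA, RARB and RXRA, the other nuclear receptors measured, were within 1.5-fold, at 218 against 174, 8.16 against 8.004 and 102 against 78.5 RPKM in Q317K and PITX1.

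Of 27 measured limb patterning transcription factors, 2 were at least 2-fold higher in Q317K and 4 lower, with a median of 0.01. All kept genes had shares of 1.92% higher and 1.66% lower. HOXD13, counted among the 2 higher, and PITX1 and PITX3, counted among the 4 lower, are described above. The viruses carry HOXD13 and PITX1, and reads under PITX3 may include those of the transgene. Nothing is therefore read from the counts of these 27 factors. TBX2 and TBX3, related repressors of the anterior and posterior limb margin, went opposite ways. TBX2 measured 27.7 RPKM in Q317K and 8.72 in PITX1, beside 13.6 in HOXD13 wt, 9.398 in Q317R and 16.95 with the empty vector, a ratio of 3.17-fold (2.55 to 3.97) towards Q317K, while TBX3 measured 16.8 RPKM in Q317K and 36.5 in PITX1, beside 14.8 in HOXD13 wt, 15.9 in Q317R and 22.7 with the empty vector, a ratio of 2.17-fold (1.95 to 2.41) towards PITX1. TBX4, the hindlimb T-box factor that PITX1 activates in the embryo, measured 26.8 RPKM in Q317K and 13.2 in PITX1, beside 36.7 in HOXD13 wt, 29.02 in Q317R and 34.1 with the empty vector. PITX1 was the lowest library for TBX4, and Q317K was 2.04-fold (1.78 to 2.33) above it on plain RPKM, just inside the limit on the log scale. TBX5, its forelimb relative, measured 10.8 RPKM in Q317K and 16.2 in PITX1, beside 17.6 in HOXD13 wt, 19.3 in Q317R and 49.4 with the empty vector. The other posterior HOX genes were close: HOXA13 measured 35.5 against 29.3 RPKM in Q317K and PITX1, HOXD12 11.9 against 15.1, HOXD11 9.69 against 9.97 and HOXA11 12.5 against 16.3. HOXD10 measured 27.4 against 16.4 RPKM, and DLX5, a factor of cartilage and bone formation, 27.6 against 14.3.

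Collagens of soft connective tissue lay to the Q317K side by their median, 0.63 against 0.03 over all kept genes. Of 10 measured members 7 were above 0 and 1 was at least 2-fold higher, the latter beside 1.92% of all kept genes. Among all kept genes more lay above 0 than below it, so nothing is read from the 7. COL3A1, the fibrillar collagen of loose connective tissue and vessel walls, measured 784 RPKM in Q317K and 158 in PITX1, beside 92.4 in HOXD13 wt, 268 in Q317R and 121 with the empty vector. It was 4.95-fold (4.86 to 5.05) higher in Q317K than in PITX1, on 55597 and 12860 reads. COL1A2, a chain of the type I collagen of bone, tendon and skin, measured 3426 RPKM in Q317K and 2093 in PITX1, beside 4433 in HOXD13 wt, 2048 in Q317R and 2044 with the empty vector, a ratio of 1.64-fold (1.63 to 1.65). Chains of the beaded type VI collagen differed among themselves: COL6A2 measured 798 against 409 RPKM in Q317K and PITX1, COL6A1 530.2 against 321 and COL6A3 452 against 485. COL8A1, a short-chain collagen of vessel and eye matrix, measured 233 against 117 RPKM, with PITX1 the lowest of the 5 libraries. COL5A2 and COL12A1 were nearly equal, at 473 against 503 and 98.5 against 114 RPKM.

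Small leucine-rich proteoglycans, which bind collagen fibrils, split both ways, with 2 of 7 measured members higher, 2 lower and a median of 0.13. Of all kept genes, 1.92% were at least 2-fold higher in Q317K and 1.66% lower. ASPN, or asporin, measured 123 RPKM in Q317K and 23.2 in PITX1, beside 50.2 in HOXD13 wt, 42.2 in Q317R and 34.4 with the empty vector, a ratio of 5.32-fold (4.91 to 5.76) towards Q317K. DCN, or decorin, measured 342 RPKM in Q317K and 131 in PITX1, beside 286 in HOXD13 wt, 71.9 in Q317R and 266 with the empty vector, a ratio of 2.62-fold (2.52 to 2.72) towards Q317K. FMOD, or fibromodulin, measured 77.03 RPKM in Q317K and 221 in PITX1, beside 439 in HOXD13 wt, 192 in Q317R and 312 with the empty vector, a ratio of 2.86-fold (2.69 to 3.05) towards PITX1, with Q317K the lowest library. PRELP measured 234 RPKM in Q317K and 502 in PITX1, beside 354 in HOXD13 wt, 114 in Q317R and 584 with the empty vector, a ratio of 2.15-fold (2.07 to 2.22) towards PITX1. LUM, or lumican, was similar in both, at 200.01 against 182 RPKM, and above the other 3 libraries.

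Genes of the elastic fibre were divided, with 3 of 11 measured members higher in Q317K, 4 lower and a median of -0.10. Shares over all kept genes were 1.92% and 1.66%. FBLN5, a fibulin needed to assemble elastin, measured 33.4 RPKM in Q317K and 6.92 in PITX1, beside 42.8 in HOXD13 wt, 44.6 in Q317R and 17.5 with the empty vector, a ratio of 4.83-fold (4.12 to 5.69) towards Q317K, with PITX1 the lowest library. MFAP5, a microfibril glycoprotein, measured 192 RPKM in Q317K and 77.4 in PITX1, beside 70.8 in HOXD13 wt, 58.7 in Q317R and 41.1 with the empty vector, a ratio of 2.48-fold (2.18 to 2.83). LOX, the oxidase that cross-links collagen and elastin, measured 763 RPKM in Q317K and 319 in PITX1, beside 270.1 in HOXD13 wt, 321 in Q317R and 509 with the empty vector, a ratio of 2.396-fold (2.29 to 2.51). ELN, elastin itself, measured 402 RPKM in Q317K and 817 in PITX1, beside 117 in HOXD13 wt, 105 in Q317R and 302 with the empty vector, a ratio of 2.03-fold (1.99 to 2.08) towards PITX1. FBLN1 measured 56.3 RPKM in Q317K and 129 in PITX1, beside 63.1 in HOXD13 wt, 37.4 in Q317R and 28.1 with the empty vector, a ratio of 2.28-fold (2.18 to 2.39) towards PITX1. The latent TGF-beta binding proteins were on the PITX1 side as well: LTBP1 measured 137 against 423 RPKM in Q317K and PITX1, a ratio of 3.09-fold (3.02 to 3.16), and LTBP2 34.6 against 129 RPKM, a ratio of 3.71-fold (3.55 to 3.88).

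Adhesion genes of condensing mesenchyme had 3 of 16 measured members at least 2-fold higher in Q317K and 1 lower, with a median of 0.01. Beside them, 1.92% of all kept genes were higher and 1.66% lower. CDH2, or N-cadherin, which joins cells of the condensation, measured 173 RPKM in Q317K and 41.6 in PITX1, beside 12.7 in HOXD13 wt, 19.8 in Q317R and 25.02 with the empty vector, so that Q317K was 4.16-fold (3.97 to 4.37) above PITX1 and PITX1 was second. GJA1, or connexin 43, a gap junction protein of mesenchyme and osteoblasts, measured 556 RPKM in Q317K and 204 in PITX1, beside 234 in HOXD13 wt, 102 in Q317R and 195 with the empty vector, a ratio of 2.72-fold (2.64 to 2.81). EPHA3, an ephrin receptor, measured 25.8 RPKM in Q317K and 9.65 in PITX1, beside 7.71 in HOXD13 wt, 5.83 in Q317R and 10.4 with the empty vector, a ratio of 2.67-fold (2.41 to 2.97). FN1, or fibronectin, was the abundant gene on the PITX1 side, at 1371 RPKM in Q317K and 3221 in PITX1, beside 254 in HOXD13 wt, 430.2 in Q317R and 1344 with the empty vector. Its ratio was 2.35-fold (2.34 to 2.36) on 155593 and 418681 reads, and Q317K lay near the empty vector. TNC, or tenascin C, lay towards Q317K inside the limit, at 325 against 192 RPKM, and VCAN, or versican, towards PITX1, at 36.8 against 68.1 RPKM.

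FN1 was also the single member 2-fold apart among 8 measured tendon and fibroblast genes, whose median was 0.38. MKX, a tendon homeobox factor, measured 67.3 against 46.2 RPKM, and FAP, a fibroblast surface protease, 69.5 against 114. Among 11 measured proteases and inhibitors of the matrix, 1 was 2-fold apart and the median was 0.05. The share of all kept genes 2-fold apart was 3.58%. ADAMTS1, which cleaves aggrecan and versican, measured 208 RPKM in Q317K and 86.1 in PITX1, beside 79.2 in HOXD13 wt, 289.98 in Q317R and 136 with the empty vector, a ratio of 2.42-fold (2.33 to 2.51) towards Q317K. MMP2 and MMP14, the gelatinase and its membrane activator, were nearly equal, at 464 against 446 and 157 against 147 RPKM.

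The gene of largest ratio on the Q317K side was CCK, the peptide hormone cholecystokinin, at 187 RPKM in Q317K and 10.1 in PITX1, beside 9.26 in HOXD13 wt, 9.63 in Q317R and 16.7 with the empty vector. Q317K was 18.5-fold (15.4 to 22.3) above PITX1, and the other 4 libraries were all low. TGM2, a transglutaminase that cross-links matrix and other proteins, measured 340.1 RPKM in Q317K and 21.7 in PITX1, beside 41.3 in HOXD13 wt, 157 in Q317R and 58.3 with the empty vector, a ratio of 15.7-fold (14.7 to 16.8), with Q317R second. ANGPTL7, a secreted angiopoietin-like protein, measured 162 RPKM in Q317K and 15.8 in PITX1, beside 17.5 in HOXD13 wt, 27.3 in Q317R and 26.8 with the empty vector, a ratio of 10.3-fold (9.07 to 11.7). COLEC10, a soluble collectin, measured 22.01 RPKM in Q317K and 1.702 in PITX1, beside 2.602 in HOXD13 wt, 7.76 in Q317R and 2.92 with the empty vector, a ratio of 12.9-fold (8.51 to 20.5) on only 24 reads in PITX1. COL28A1, a minor collagen chain, measured 22.99 RPKM in Q317K and 2.505 in PITX1, beside 3.13 in HOXD13 wt, 7.09 in Q317R and 4.12 with the empty vector, a ratio of 9.18-fold (7.69 to 11.03). COCH, or cochlin, a matrix protein best known from the inner ear, measured 133 RPKM in Q317K and 22.0005 in PITX1, beside 25.6 in HOXD13 wt, 28.4 in Q317R and 57.6 with the empty vector, a ratio of 6.05-fold (5.56 to 6.59). Q317K was the highest of the 5 libraries for each of the 15 named genes of largest ratio on its side, as the plot of the largest ratios shows. Genes picked for a large ratio are bound to be high in Q317K more often, so nothing is read from this.

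CCK belonged to a list of granins, peptide hormones and carboxypeptidases. Of its 13 measured members 4 were at least 2-fold higher in Q317K and 1 lower, with a median of -0.09. The corresponding shares of all kept genes were 1.92% and 1.66%. CPZ, a carboxypeptidase with a frizzled-like domain, measured 56.9 RPKM in Q317K and 8.07 in PITX1, beside 4.996 in HOXD13 wt, 35.8 in Q317R and 6.68 with the empty vector, a ratio of 7.04-fold (6.204 to 8.02), with Q317R second. NELL2, a secreted protein of neurons, measured 136 RPKM in Q317K and 26.6 in PITX1, beside 84.5 in HOXD13 wt, 191 in Q317R and 8.68 with the empty vector, a ratio of 5.11-fold (4.801 to 5.45), and Q317R exceeded Q317K. CHGB, a granin of secretory granules, measured 48.98 RPKM in Q317K and 12.7 in PITX1, beside 359 in HOXD13 wt, 25.1 in Q317R and 16.8 with the empty vector, a ratio of 3.86-fold (3.49 to 4.28), while HOXD13 wt was far higher than both. NPY, or neuropeptide Y, was on the PITX1 side, at 5.41 RPKM in Q317K and 20.2 in PITX1, beside 5.65 in HOXD13 wt, 3.85 in Q317R and 6.61 with the empty vector, a ratio of 3.74-fold (2.701 to 5.27).

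On the PITX1 side, the named genes of largest ratio after PITX1 and the globins were mostly high in that library alone. These genes were picked by their ratio as well, so nothing is read from that pattern. RXFP2, a relaxin-family peptide receptor, measured 6.36 RPKM in Q317K and 63.3 in PITX1, beside 7.297 in HOXD13 wt, 9.04 in Q317R and 10.5 with the empty vector, a ratio of 9.95-fold (8.36 to 11.9). WFIKKN1, a secreted protein that binds growth factors of the GDF family, measured 11.1 RPKM in Q317K and 86.4 in PITX1, beside 12.4 in HOXD13 wt, 14.4 in Q317R and 19.5 with the empty vector, a ratio of 7.81-fold (6.82 to 8.99). KAZALD1, a secreted protein related to IGF-binding proteins, measured 19.04 RPKM in Q317K and 133 in PITX1, beside 19.4 in HOXD13 wt, 16.4 in Q317R and 39.1 with the empty vector, a ratio of 6.997-fold (6.28 to 7.81). In each of these 3 genes PITX1 was the highest library and the empty vector the second. CRISPLD2, a secreted cysteine-rich protein, measured 60.2 RPKM in Q317K and 356 in PITX1, beside 116 in HOXD13 wt, 93.4 in Q317R and 109.9 with the empty vector, a ratio of 5.92-fold (5.597 to 6.26). PTGS2, the inducible prostaglandin synthase, measured 21.1 RPKM in Q317K and 113 in PITX1, beside 22.4 in HOXD13 wt, 15.8 in Q317R and 25.7 with the empty vector, a ratio of 5.39-fold (5.07 to 5.73). CA9, a carbonic anhydrase of hypoxic cells, differed in pattern, at 13.5 RPKM in Q317K and 85.7 in PITX1, beside 52.9 in HOXD13 wt, 36.96 in Q317R and 76.6 with the empty vector, since PITX1 was near the empty vector and Q317K was the lowest library, a ratio of 6.35-fold (5.42 to 7.49). The entries labelled K2CO and MYSC are described with the other cell types.

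**Figure D3:**
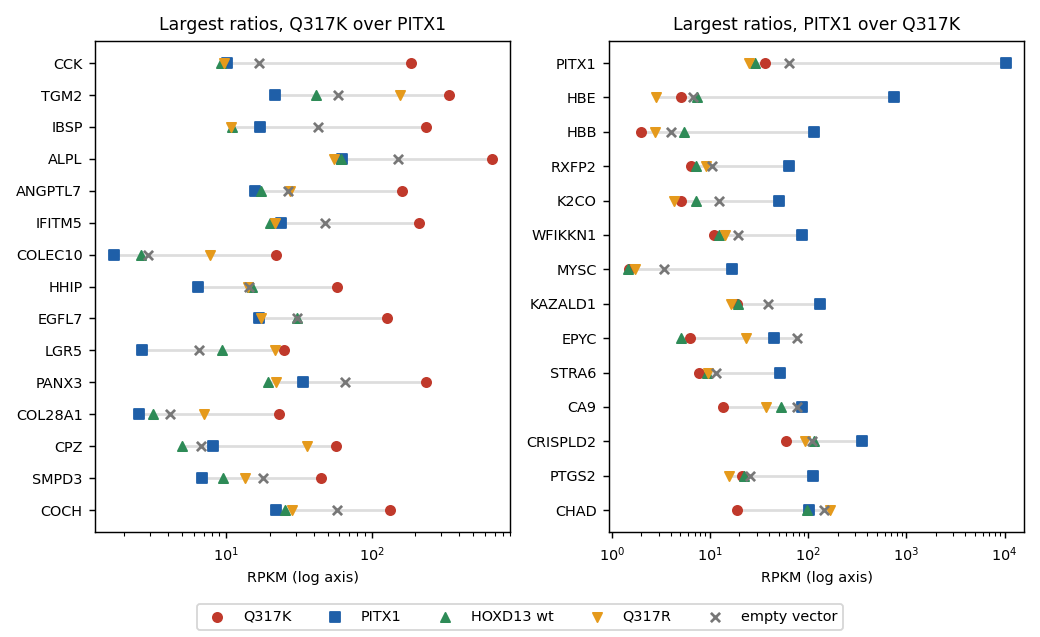
RPKM on log axes of the 15 named genes with the largest ratio of Q317K over PITX1 (left) and of 14 of the 15 with the largest ratio of PITX1 over Q317K (right), with 1 marker for each of the 5 RNA libraries. On the left Q317K (red circles) is the highest library for every gene. PITX1 (blue squares) is the highest on the right for all but EPYC and CHAD. Both sets were picked by these ratios, so high values follow in part from the choice.

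Markers of other cell types were examined beside these results. The largest such difference was in 2 beta-type globin genes of red blood cells, HBE and HBB, which were high in the PITX1 library alone. HBE measured 5.08 RPKM in Q317K and 747 in PITX1, beside 7.43 in HOXD13 wt, 2.798 in Q317R and 6.77 with the empty vector, a ratio of 147-fold (107 to 208). HBB measured 1.97 RPKM in Q317K and 116 in PITX1, beside 5.46 in HOXD13 wt, 2.76 in Q317R and 4.001 with the empty vector, a ratio of 58.7-fold (35.4 to 105). Globin genes are near copies of each other, so reads may be split between them. The third measured red cell gene, KLF1, was nearly equal, at 16.9 against 18.1 RPKM, and the alpha-type globins HBAA and HBAD were under 5 RPKM in both libraries, at 3.16 and 3.71 in Q317K and 2.76 and 2.28 in PITX1. TAL1, a factor of early blood cells, measured 4.46 and 4.35 RPKM. Summed over the 7 red cell genes in the table, RPKM came to 38.99 in Q317K, 894 in PITX1, 55.3 in HOXD13 wt, 46.3 in Q317R and 58.997 in the empty vector. No member of this list was at 0 in Q317K or PITX1, and the part of such cells in the other differences was not tested.

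Skeletal muscle genes lay slightly to the Q317K side, with a median of 0.43 against 0.03 over all kept genes. Of 12 measured members 10 were above 0 and 2 at least 2-fold higher, the latter beside 1.92% of all kept genes. TNNI2, MYL1 and CHRNA1 were kept through Q317K alone, being under 5 RPKM in PITX1, so the filter adds to both counts. More of all kept genes lay above 0 than below it, so nothing is read from the 10. TNNI1, a slow troponin, measured 35.9 RPKM in Q317K and 14.97 in PITX1, beside 11.9 in HOXD13 wt, 12.8 in Q317R and 19.3 with the empty vector, a ratio of 2.395-fold (2.03 to 2.83), and TNNI2, a fast one, 7.62 against 3.25 RPKM. Levels were low: the 13 genes of the list in the table summed to 206 in Q317K, 132 in PITX1, 99.4 in HOXD13 wt, 101 in Q317R and 144 in the empty vector, and the muscle determination factors MYOD1, MYF5 and MYOG measured 7.57 against 5.94, 5.49 against 6.19 and 5.96 against 5.72 RPKM in Q317K and PITX1. MYSC, the UniProt label of a myosin heavy chain, was on no list and is not counted with the skeletal muscle genes. It measured 1.505 RPKM in Q317K and 16.9 in PITX1, beside 1.47 in HOXD13 wt, 1.73 in Q317R and 3.38 with the empty vector. Its ratio was 11.2-fold (9.36 to 13.6) towards PITX1, and it was kept through PITX1 alone. Smooth muscle genes split, with TAGLN at 316 RPKM in Q317K and 782 in PITX1, beside 86.4 in HOXD13 wt, 115 in Q317R and 315 with the empty vector, a ratio of 2.48-fold (2.36 to 2.601) towards PITX1, and MYLK at 22.2 against 8.73 RPKM, 2.54-fold (2.36 to 2.73) towards Q317K. ACTA2, the smooth muscle actin that activated fibroblasts also make, measured 608 RPKM in Q317K and 999 in PITX1, beside 117 in HOXD13 wt, 249 in Q317R and 237 with the empty vector, higher in both cultures than in the other 3.

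Of 6 measured endothelial genes, 1 was higher and 1 lower, beside 1.92% and 1.66% of all kept genes. FLT1, the lower one, was kept through PITX1 alone, being under 5 RPKM in Q317K, so it entered the count through its higher library. EGFL7, a protein secreted by vessels, measured 128 RPKM in Q317K and 16.9 in PITX1, beside 30.7 in HOXD13 wt, 17.4 in Q317R and 30.9 with the empty vector, a ratio of 7.58-fold (6.67 to 8.64) towards Q317K. FLT1, a VEGF receptor, measured 3.15 RPKM in Q317K and 17.4 in PITX1, beside 1.83 in HOXD13 wt, 2.77 in Q317R and 3.16 with the empty vector, a ratio of 5.52-fold (4.48 to 6.85) towards PITX1. TIE1 and ERG differed little, at 7.12 against 7.93 and 41.4 against 46.5 RPKM, and PECAM1 was under 5 RPKM in both. Of 7 measured neuron and Schwann cell genes, STMN2, a neuronal tubulin-binding protein, was higher in Q317K, at 12.4 against 3.93 RPKM, and FABP7, a fatty acid binding protein of glia, lower, at 35.1 RPKM in Q317K and 119 in PITX1, beside 8.91 in HOXD13 wt, 11.6 in Q317R and 18.2 with the empty vector. STMN2 was kept through Q317K alone, being under 5 RPKM in PITX1. KRT19, a keratin, was the single one of the 4 listed epithelial genes that was 2-fold apart, at 14.6 RPKM in Q317K and 42.8 in PITX1, beside 10.9 in HOXD13 wt, 11.8 in Q317R and 9.702 with the empty vector. K2CO, the UniProt label of a type II keratin, was on no list and was also higher in PITX1, at 5.05 RPKM in Q317K and 50.4 in PITX1, beside 7.23 in HOXD13 wt, 4.29 in Q317R and 12.3 with the empty vector, a ratio of 9.98-fold (7.87 to 12.8). None of 3 adipocyte and 4 macrophage genes was 2-fold apart, beside 3.58% of all kept genes, so nothing is read from this. How far such cells contribute to the differences in cartilage, bone and connective tissue genes was not tested.

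**Figure D4:**
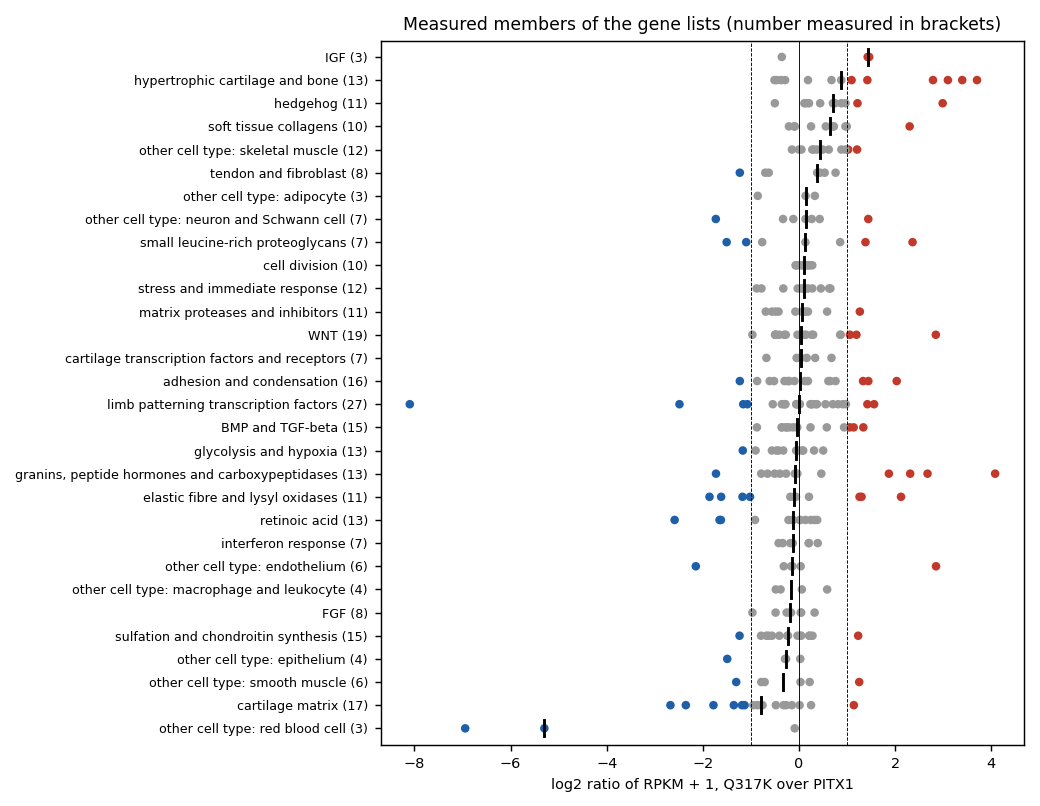
Each point is 1 measured gene of the 30 lists, placed by its log2 ratio of Q317K over PITX1 on the horizontal axis, with the number measured in brackets, black bars for list medians and dashed lines at the 2-fold limits. Red points are at least 2-fold higher in Q317K and blue points at least 2-fold lower. IGF, hypertrophic cartilage and bone, and hedgehog genes have the highest medians, and red blood cell and cartilage matrix genes the lowest.

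Other lists had few genes past the limit, as had all kept genes, of which 3.58% were past it, so nothing is read from these counts. None of 10 measured cell division genes was 2-fold apart, their log2 ratios ran from -0.07 to 0.27, and MKI67, the marker of cycling cells, measured 11.1 against 11.7 RPKM in Q317K and PITX1. None of 12 stress and immediate response genes was 2-fold apart. The early response factors EGR1 and JUN lay towards PITX1, at 388 against 716 and 163 against 282 RPKM, and the chaperone HSPA5 measured 502 against 476. Of 13 glycolysis and hypoxia genes, 1 was 2-fold apart, and LDHA, the lactate dehydrogenase of anaerobic cells, measured 607 against 428 RPKM. None of 7 interferon response genes was 2-fold apart, and their median was -0.13.

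The empty vector library places the differences against cells without a transgene. Among the 235 genes at least 2-fold higher in Q317K, the empty vector lay between both cultures for 162, below both for 58 and above both for 15, which is 68.9%, 24.7% and 6.38%. Q317K was at least 2-fold above the empty vector for 126 of them, and PITX1 at least 2-fold below it for 41. Among the 203 genes at least 2-fold lower in Q317K, the empty vector lay between for 118, above both for 39 and below both for 46, which is 58.1%, 19.2% and 22.7%. PITX1 was at least 2-fold above it for 98 and Q317K at least 2-fold below it for 56. Q317K was the highest of the 5 libraries for 170 of the 235 genes, or 72.3%, and PITX1 for 148 of the 203, or 72.9%. Over all kept genes the empty vector lay between for 22.7%, above both for 39.3% and below both for 37.97%, Q317K was the highest library for 20.5% and PITX1 for 13.6%. Genes chosen for a difference between both libraries are bound to have extreme values in them and the empty vector between them more often, so nothing is read from these gaps.

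Among the 10 pairs that the 5 RNA libraries form, Q317K and PITX1 had the second smallest number of genes at least 2-fold apart. HOXD13 wt and Q317R had 396, Q317K and PITX1 438, Q317R and the empty vector 510, and PITX1 and the empty vector 606, or 4.77% of the genes kept for that pair. Q317K differed from the empty vector in 637 genes, or 5.01%, from Q317R in 638, or 5.09%, and from HOXD13 wt in 786, or 6.28%. PITX1 differed from Q317R in 735 genes, or 5.84%, and from HOXD13 wt in 795, or 6.35%, the largest of these numbers. The median size of the log2 ratio was 0.17 for Q317K and PITX1 and also 0.17 for HOXD13 wt and Q317R. Pairs share libraries and no pair has a replicate, so the spread expected between cultures of one kind is unknown and the differences between these numbers were not tested.

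**Figure D5:**
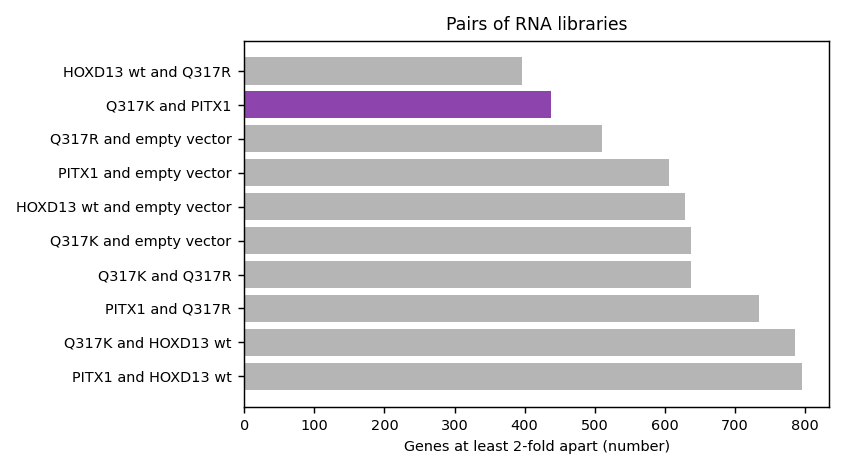
Bars, which start at 0, give the number of genes at least 2-fold apart for each pair of RNA libraries, with the pair of Q317K and PITX1 in purple. That pair has 438 such genes, above 396 for HOXD13 wt and Q317R and below the 510 to 795 of the other pairs.

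At the edge of the 2-fold limit, PSTPIP1 and SLC25A17 were the last named genes past it on the Q317K side, at 15.4 against 7.16 and 43.3 against 20.9 RPKM, and LRRC42 and MEGF10 the first short of it, at 20.04 against 9.56 and 14.6 against 6.804. On the PITX1 side IL8 and OAF were just past it, at 17.5 against 36.05 and 18.02 against 37.1 RPKM, and FSTL3 and LYPD6 just short of it, at 15.3 against 31.4 and 4.46 against 9.86. The share of genes past the limit was larger among abundant genes: at a mean under 10 RPKM 1.45% were higher in Q317K and 1.20% lower, and at a mean of 30 to 100 RPKM 2.25% and 2.54%. The pseudocount of 1 RPKM understates differences of low genes, so this trend cannot be told apart from an effect of the scale.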

How the data were processed

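The authors deposited RNA values as RPKM for 21998 Ensembl transcripts in 5 libraries, per the file headers. RNA was selected on oligo-dT and read as 115 bp single reads, per the labels' protocols; not given in the sources used here: the aligner, counting tool, annotation, genome build and use of strand. Columns were assigned to samples by name. Whole reads and library totals were recovered from the RPKM steps: 100% of rows came out whole within a tolerance of 0.001. Common factors can make recovered reads too small, which widens intervals. For each gene the transcript of highest mean RPKM was used, genes with at least 5 RPKM in Q317K or PITX1 were kept, and a pseudocount of 1 RPKM entered the log2 ratio. Genes reaching 5 RPKM in only 1 library of the pair are kept through the higher one, which can add to counts of direction. Fold ratios use plain RPKM, with 95% exact (Clopper-Pearson) intervals on recovered reads; reads are not independent molecules. With 1 library a side no test between conditions was run. Gene names are those in the deposited table, and 195 labels in UniProt style, which belong to 135 kept genes, were translated to symbols by hand, IBSP and ALPL among them, some after the largest ratios had been seen; K2CO and MYSC are printed as labelled. Named are the genes of the viruses and their relatives, the 15 largest ratios on either side among the 7097 kept genes with a name, up to 6 members of each of 30 lists with every cartilage, bone and soft tissue collagen member, and the 2 nearest to the limit on either side; other list members were named after their values were seen. Some named by this rule are not reported here. The members, lists and this rule were chosen with earlier results of these data known. Chromatin peak lists and inputs, and promoter motifs, were not analysed here. The steps were tested on simulated data. Python 3.11.15, numpy 2.4.6, scipy 1.17.1, pandas 2.3.3 and matplotlib 3.10.9 were used.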

Additional observations from a re-analysis of the deposited data

How the results depend on the processing

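The numbers of genes past the limit depended mainly on how the limit was set. A pseudocount of 5 RPKM left 139 genes higher in Q317K and 122 lower, a 1.5-fold limit gave 632 and 597, and a 3-fold limit 65 and 60. Under the other 9 settings 157 to 279 genes were higher and 140 to 245 lower, beside 235 and 203; these settings were a pseudocount of 0.1 RPKM, a minimum of 1 or 20 RPKM or none, the longest transcript or the mean over transcripts, 2 rescalings, and a minimum of 100 recovered reads, the last chosen after seeing the data, which gave 216 and 189. With equal sums apart from the 100 highest genes, 47.9% of the genes past the limit were higher in Q317K, beside 53.7%; COMP, FGF2 and FRZB then passed the limit and TNNI2 fell short. The pseudocount of 5 RPKM took 13 of the 207 named genes below the limit, among them BMP6, GREM1, TBX3, CHST15, PITX3, MYLK, STMN2 and TNNI2. TNNI2 also fell short with the longest transcript or the mean over transcripts, whereas SHH passed the limit with either and VCAN with the longest. A pseudocount or a minimum leaves the sign of a gene's ratio as it is, and rescalings by 1.02 and 1.04 cannot reverse a 2-fold difference. Only the choice of transcript could do so. With the longest transcript or the mean over transcripts, no named gene past the limit changed direction, and under each 2 of the 207 were not measured. CYTL1, MYL9, KRT14, ESAM, FGFR3 or NEFL, all near equal, changed sign under a rescaling or another transcript. Of the 30 list medians, 8 changed sign with a minimum of 20 RPKM and 5 with equal sums apart from the 100 highest genes. The sign changed for 2 when PITX1 was rescaled to a median log2 ratio of 0, and for 1 with the longest transcript. No paired analysis was possible because each group has 1 RNA library. The totals, 14069766 reads at the least, limit only counting error; the spread between cultures is unknown.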
